A study of Mus musculus with 847 samples.

Results

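The genes Th, Ddc, Slc6a3, Slc18a2, Dbh, Slc6a2, Tph2, Slc6a4, Chat and Slc5a7 make, package or take back dopamine, noradrenaline, serotonin and acetylcholine (its precursor choline in the last case), and they mark the neurons that release these transmitters. The set was chosen by gene name. It holds 10 of the 21076 genes in the deposited count table, and each of the 10 was found there. Bulk RNA was sequenced from 15 dissected brain regions of 59 C57BL/6JN mice, in 847 libraries of 1 region from 1 mouse. There were 5 females and 5 males at 3, 12, 15 and 18 months, 5 females and 6 males at 21 months, 5 males at 26 months and 3 males at 28 months. The strain was shared by every group, and the labels name no transgene, deletion, treatment or pooling of animals.

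Each region had between 51 and 59 libraries, and the smallest library held 481444 reads, the median one 6716032 and the largest 26756735. Levels are given as CPM, the reads of a gene per 1e+06 reads of its library. No columns of the table were identical, and 16 libraries had a profile nearest to the mean of another region, of which 9 were labelled posterior hippocampus and 1, from mouse 41, was labelled pons. Mice numbered 1 to 15 were 12 or 26 months old, those numbered 16 to 56 were 3, 15, 18 or 21 months old and those numbered 57 to 59 were 28 months old, so age and number cannot be fully told apart. In bulk tissue, fewer cells of a type and less RNA per cell cannot be told apart.

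Tyrosine hydroxylase (Th) carries out the first and rate-limiting step of catecholamine synthesis, and aromatic amino acid decarboxylase (Ddc) the next, which gives dopamine. Dopamine beta-hydroxylase (Dbh) turns dopamine into noradrenaline. Tryptophan hydroxylase 2 (Tph2) begins serotonin synthesis in neurons, with Ddc again taking the next step. Slc18a2 encodes the vesicular transporter VMAT2, which loads all of these monoamines into vesicles, and Slc6a3, Slc6a2 and Slc6a4 encode the transporters that take back dopamine, noradrenaline and serotonin. Choline acetyltransferase (Chat) makes acetylcholine, and Slc5a7 encodes the transporter that brings choline into the terminal. The cell bodies of most monoamine neurons lie in small midbrain, pontine and medullary nuclei, whereas cholinergic cell bodies lie in the striatum, the basal forebrain and the motor nuclei. RNA is found mainly near the cell body, so a region that is densely innervated by these neurons need not hold their transcripts.

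Promoters are printed for the synthesis enzyme and the transporter of dopamine and of serotonin, since the members of each pair followed each other closely from library to library. Each sequence covers the 250 bases before the transcription start in the RefSeq promoter table for GRCm38.p6, read on the gene's strand. Th is at chr7:142899996-142900245 on the minus strand, Slc6a3 at chr13:73536497-73536746 on the plus strand, Tph2 at chr10:115185023-115185272 on the minus strand and Slc6a4 at chr11:76998347-76998596 on the plus strand. Capitals mark a cyclic AMP response element (TGACGTCA), a TATA motif (TATAAA) or a GC box (GGGCGG, or CCGCCC where it lies on the other strand).
Th: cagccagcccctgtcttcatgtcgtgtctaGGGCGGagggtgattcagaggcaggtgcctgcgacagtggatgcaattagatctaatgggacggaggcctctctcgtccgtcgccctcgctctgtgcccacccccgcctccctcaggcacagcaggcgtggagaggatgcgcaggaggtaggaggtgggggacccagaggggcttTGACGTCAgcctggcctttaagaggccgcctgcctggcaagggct
Slc6a3: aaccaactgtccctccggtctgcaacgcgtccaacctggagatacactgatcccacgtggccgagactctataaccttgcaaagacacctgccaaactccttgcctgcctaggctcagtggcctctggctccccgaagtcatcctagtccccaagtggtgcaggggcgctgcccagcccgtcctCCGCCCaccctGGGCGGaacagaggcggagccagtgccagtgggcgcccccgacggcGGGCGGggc
Tph2: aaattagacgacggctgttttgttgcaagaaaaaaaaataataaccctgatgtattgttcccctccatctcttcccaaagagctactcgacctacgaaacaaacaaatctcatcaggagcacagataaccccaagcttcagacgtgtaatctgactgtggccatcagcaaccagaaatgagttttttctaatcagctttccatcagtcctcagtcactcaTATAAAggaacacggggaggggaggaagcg
Slc6a4: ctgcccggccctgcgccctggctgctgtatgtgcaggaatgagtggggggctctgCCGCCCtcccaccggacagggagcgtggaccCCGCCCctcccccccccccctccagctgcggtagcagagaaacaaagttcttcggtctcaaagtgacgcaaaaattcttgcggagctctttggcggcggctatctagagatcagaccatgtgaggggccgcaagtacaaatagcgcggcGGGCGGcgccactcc
On these letters, the Th promoter held the cyclic AMP element 45 to 38 bases before the start and 1 GC box, the Slc6a3 promoter 3 GC boxes, the Tph2 promoter a TATA motif 30 to 25 bases before the start, and the Slc6a4 promoter 3 GC boxes. Both strands were searched and the motifs do not overlap one another in these sequences. Among 32851 promoters of the table, 1.55% held the cyclic AMP element, 12.4% the TATA motif and 32.7% the GC box. The 2 genes of a pair therefore did not carry the same combination of these motifs, and a match is a description of the letters only. Of the 10 genes, 9 had an entry in the promoter table.

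In the GENCODE annotation of GRCm38, Th spans chr7:142892752-142931128 and Slc6a3 spans chr13:73536747-73578672. The printed Th promoter lies inside the Th span, so the start it precedes is not the outermost start of Th in GENCODE. Ddc spans chr11:11814101-11898144 and Slc18a2 chr19:59260896-59296012. Dbh spans chr2:27165233-27183200 and Slc6a2 chr8:92960079-93001667. Tph2 spans chr10:115078641-115185022 and Slc6a4 chr11:76998603-77032340. Chat spans chr14:32408203-32465989 and Slc5a7 chr17:54273590-54299034. The table gives 1 count per gene, so exons and isoforms are not distinguished.

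Th had its highest levels in olfactory bulb and pons. In olfactory bulb, where periglomerular interneurons make dopamine, its lowest, median and highest levels over 58 libraries were 282.3, 349 and 420.4 CPM. In pons they were 1.44, 274 and 1551 CPM over 51 libraries. The bulb libraries thus lay in a narrow band, and the pons libraries spread from far below it to far above it, with coefficients of variation of 8.48% and 93.7%. The fitted difference in level between the regions was 0.32 log2 (pons minus bulb, SE 0.22, adjusted p = 0.153 by the quasi-likelihood test of edgeR with Benjamini-Hochberg adjustment over all genes of the pair), which did not pass the threshold of 0.05. Hypothalamus, home of the neurosecretory dopamine neurons, followed at 30.2, 72.6 and 180.1 CPM, and its lowest library lay above the highest of caudate putamen.

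Below these, Th ran at 5.47, 15.8 and 26.6 CPM in caudate putamen, the main target of nigral dopamine axons, and at 2.58, 8.70 and 21.4 CPM in medulla. Cerebellum held 0.620, 6.43 and 65.4 CPM and corpus callosum 3.77, 6.27 and 11.7 CPM. The remaining regions had medians between 0.545 CPM in thalamus and 3.27 CPM in motor cortex. Neighbours in the order of mean log2 CPM were counted as separated where the means differed by more than the larger of the 2 SDs over mice. By that measure hypothalamus stood above caudate putamen, caudate putamen above medulla and corpus callosum above subventricular zone, while bulb was not separated from pons, pons from hypothalamus, medulla from cerebellum, or cerebellum from corpus callosum. Of the summed mean CPM of the 15 regions, pons held 45.8%, olfactory bulb 38.9% and hypothalamus 8.7%.

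**Figure D1:**
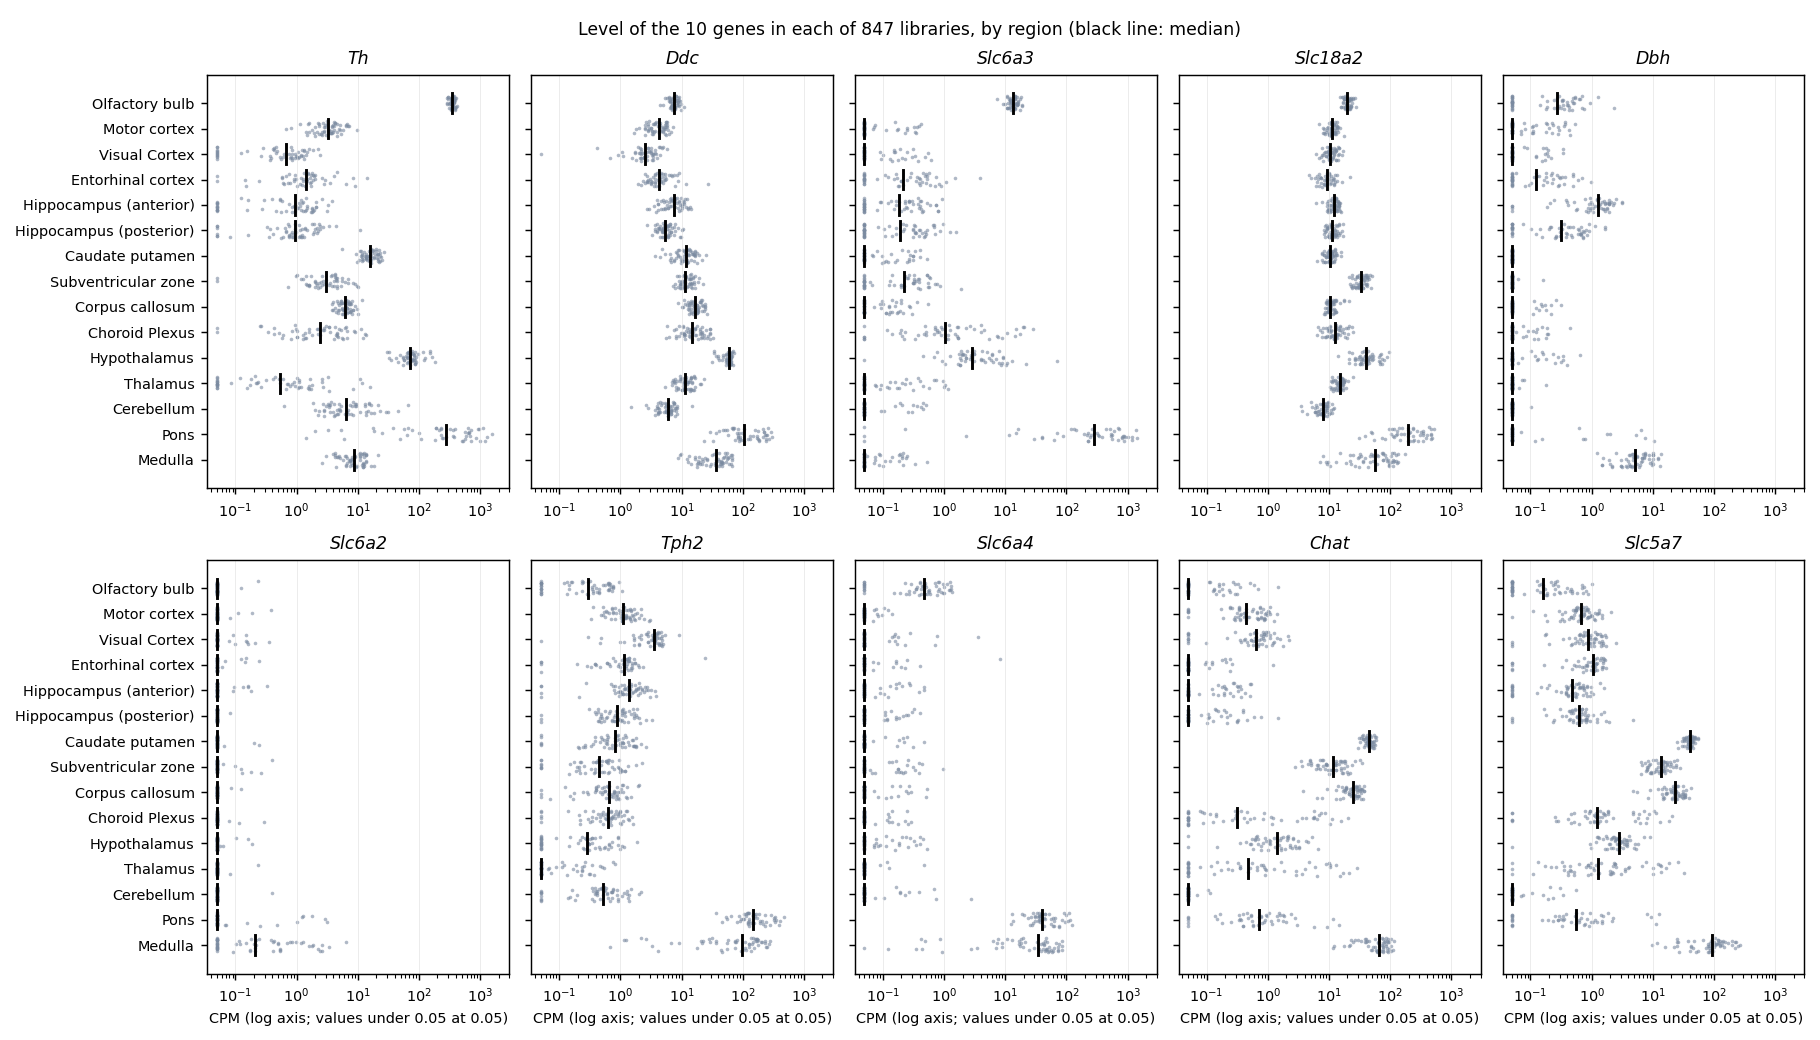
Level of each of the 10 genes in each of the 847 libraries, 1 panel a gene, with CPM on a log axis against the 15 regions; values under 0.05 CPM are drawn at 0.05 and the black lines are medians. Th in pons runs from 1.44 to 1551 CPM while Th in olfactory bulb stays between 282.3 and 420.4 CPM, and Dbh in caudate putamen is at 0 in each library.

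Slc6a3, the dopamine transporter and the gene of the set that is most specific to dopamine neurons, was found mainly in pons. Its lowest, median and highest levels there were 0, 278 and 1397 CPM, with 37 of 51 libraries at 100 CPM or more and 3 at 0. Olfactory bulb held 7.24, 13.5 and 18.6 CPM and hypothalamus 0, 2.91 and 70.4 CPM. In caudate putamen the highest of 58 libraries reached 0.516 CPM and 34 were at 0, although Th was read there in each library. Pons was separated from bulb and bulb from hypothalamus, while hypothalamus and choroid plexus (median 1.05, highest 28.2 CPM) were not. The fitted level in pons was 5.01 log2 above that in bulb and 6.20 log2 above that in hypothalamus (SE 0.37 for the second).

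Per kilobase of exon, which allows levels of different genes to be compared, mean Th was 174 and mean Slc6a3 121 CPM per kb in pons. In olfactory bulb the same means were 147 and 3.92 CPM per kb, and in hypothalamus 33.0 and 1.61 CPM per kb. The transporter was thus close to the enzyme in pons and far below it in bulb and hypothalamus. The ratio of Slc6a3 to Th in CPM, which carries the lengths of both genes and is compared between regions only, had a median of 1.01 (lowest 0.571, highest 1.42) in the 46 pons libraries with at least 10 CPM of Th. It was 0.0388 in bulb (lowest 0.0254, highest 0.0498 in 58 libraries) and 0.0452 in hypothalamus. The ranges of pons and bulb did not overlap.

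Levels of defining genes were summed in the libraries labelled pons. The dopamine, noradrenaline and serotonin lists include members of the set. Their sums therefore restate the levels of those members in part and are no separate check of the label. The hindbrain list (Hoxb3, Hoxb5, Hoxb8 and Slc6a5) summed to 1.24, 43.6 and 94.2 CPM there (lowest, median and highest), with 3 of 4 genes at a median of at least 1 CPM and Hoxb8 at a median of 0. The dopamine neuron list (Th, Slc6a3, Nr4a2 and Pitx3) summed to 10.1, 609 and 3061 CPM, with 4 of 4 at a median of at least 1 CPM. The noradrenaline neuron list (Dbh, Slc6a2 and Phox2a), whose best known source, the locus coeruleus, is a pontine nucleus, summed to 0, 0.149 and 13.5 CPM, with none of 3 at a median of 1 CPM and both Dbh and Slc6a2 at a median of 0. Serotonin neuron genes (Tph2, Slc6a4 and Fev) summed to 51.2, 192 and 616 CPM. The libraries labelled pons therefore held genes of dopamine neurons, which lie in the ventral midbrain, at a far higher level than genes of noradrenaline neurons, and the borders of the dissection are not given in the labels.

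The Th level of a pons library also moved with other measures. Over the 51 libraries, after removing sex and age, the correlation of log2 CPM of Th with the summed hindbrain list was -0.673 (Spearman -0.884, and -0.680 without the 2 libraries farthest from the median of the x axis). Th had medians of 43.2 CPM in the 10 pons libraries of mice numbered 1 to 15, 372 CPM in the 38 of mice 16 to 56 and 645 CPM in the 3 of mice 57 to 59. Slc6a3 moved alike, at 34.6, 357 and 564 CPM, while Tph2 was at 123, 146 and 168 CPM. Library totals had medians of 4774202, 10429610 and 10338309 reads in these blocks. In olfactory bulb the Th medians of the blocks lay closer together, at 362, 346 and 335 CPM. The part of the dissection or of depth in the pons values was not tested.

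Ddc and Slc18a2 serve every monoamine neuron, and both were read in each of the 15 regions. Ddc was highest in pons, at 23.6, 105.2 and 305 CPM (lowest, median and highest), then in hypothalamus at 32.0, 60.3 and 71.3 CPM and in medulla at 8.82, 36.2 and 67.4 CPM. Each of these 3 was separated from the next. Corpus callosum followed at 8.79, 16.7 and 25.9 CPM and choroid plexus at 5.50, 15.0 and 32.5 CPM, both above olfactory bulb at 4.44, 7.56 and 11.1 CPM. Bulb, with more Th than hypothalamus in each of its libraries, thus held far less Ddc: the ratio of Ddc to Th in CPM had a median of 0.0212 in bulb and 0.795 in hypothalamus. Ddc was lowest in visual cortex, with a median of 2.53 CPM. Caudate putamen, subventricular zone and thalamus had near levels of Ddc, with fitted differences of -0.08 (subventricular zone minus caudate putamen, adjusted p = 0.305), -0.02 (thalamus minus caudate putamen, 0.781) and 0.06 log2 (thalamus minus subventricular zone, 0.404), and for these the edgeR test did not pass.

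Slc18a2 was highest in pons, at 31.2, 198 and 514 CPM, followed by medulla at 7.22, 56.2 and 172 CPM and hypothalamus at 13.9, 40.2 and 96.7 CPM. Subventricular zone came next at 21.5, 33.5 and 51.2 CPM, a level 1.57 log2 above caudate putamen (SE 0.054) although the regions had near levels of Ddc and subventricular zone had less Th. No library of any region was without Slc18a2, and the lowest median was 8.04 CPM in cerebellum. Pons was separated from medulla, subventricular zone from olfactory bulb and bulb from thalamus, and from thalamus down to cerebellum no neighbours were separated. Slc18a2 shares 111 exon bases with an antisense gene that is not in the table, and since the libraries were unstranded its reads cannot be told apart from antisense reads there.

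In subventricular zone Slc18a2 ran against Th (r = -0.519 over 55 libraries) and with the summed thalamic marker list (0.652). In hypothalamus it followed the mast cell list (0.835 over 55 libraries, Spearman 0.851). Of the 7 genes of that list, Hdc alone, the histamine-synthesising enzyme that also marks hypothalamic histamine neurons, was above a median of 0 there, and the other 6 (Cpa3, Tpsb2, Mcpt4, Cma1, Ms4a2 and Fcer1a) were at a median of 0. The list summed to 0.385, 25.9 and 119 CPM, and the correlation of Slc18a2 with Hdc itself was 0.821. Histamine neurons load their transmitter through Slc18a2 as well.

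Dbh was highest in medulla, where the lowest, median and highest of 58 libraries were 1.23, 5.19 and 13.4 CPM. Anterior hippocampus was the next region at 0, 1.25 and 3.13 CPM, with 4 of 57 libraries at 0, and both it and medulla were separated from what followed. In caudate putamen none of 58 libraries had a read, which over the summed libraries allows up to 0.00825 CPM (3 reads). Against that bound, Dbh in medulla was at least 658-fold higher. Slc6a2, the noradrenaline transporter, was lower still, at 0, 0.207 and 6.44 CPM in medulla with 20 of 58 libraries at 0. Bounds of this kind cover counting error only, since the labels name no molecular identifiers.

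In pons, where noradrenaline neurons of the locus coeruleus would be looked for, 37 of 51 libraries had no Dbh read and 39 had no Slc6a2 read. Dbh reached at least 1 CPM in 6 pons libraries. It was 10.3 CPM in mouse 41 (female, 3 months), 7.45 in mouse 21 (male, 3 months), 6.30 in mouse 55 (female, 18 months), 5.28 in mouse 5 (male, 26 months), 2.03 in mouse 30 (male, 15 months) and 1.78 in mouse 11 (male, 26 months). Slc6a2 in the same 6, in that order, was 2.86, 3.10, 1.26, 1.76, 1.01 and 1.23 CPM. Chat in them was 9.25, 14.8, 5.67, 11.7, 1.99 and 1.78 CPM, against a median of 0.705 CPM over all pons libraries. Of these, the library of mouse 41 is the one whose profile was nearest to another region. The 4 with Dbh above 5 CPM came from 3 ages and both sexes.

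Tph2 and Slc6a4, the serotonin pair, were found in pons and medulla, which hold the raphe nuclei. Tph2 ran at 37.1, 145 and 473 CPM in pons and at 0.665, 96.4 and 283 CPM in medulla, where 49 of 58 libraries reached 10 CPM. Slc6a4 ran at 12.4, 39.5 and 124 CPM in pons and at 0, 34.1 and 85.6 CPM in medulla. The regions overlapped widely, and neither gene was separated between them by the SD measure. The fitted levels differed, by -0.78 log2 for Tph2 (medulla minus pons, SE 0.23, adjusted p = 0.00236) and by -0.60 for Slc6a4 (SE 0.22, 0.0141), and with males alone neither difference passed. Per kilobase, mean Tph2 in pons was 61.1 and mean Slc6a4 10.8 CPM per kb. Outside the hindbrain Tph2 was highest in visual cortex, at 0, 3.50 and 9.12 CPM, above anterior hippocampus at a median of 1.38 CPM and separated from it. The median of Slc6a4 in visual cortex was 0, with 44 of 56 libraries at 0.

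Chat and Slc5a7 followed a different map, with medulla, caudate putamen, corpus callosum and subventricular zone at the top. Chat ran at 11.6, 65.3 and 114 CPM in medulla, which holds cranial motor nuclei, and at 29.2, 44.2 and 58.9 CPM in caudate putamen, which holds cholinergic interneurons. Corpus callosum had 3.80, 24.7 and 37.2 CPM and subventricular zone 2.76, 11.8 and 34.9 CPM. The medulla libraries enclosed the whole range of the caudate libraries, and the means were not separated by SD, although the fitted level was 0.46 log2 higher in medulla (SE 0.098, adjusted p = 9.55e-06). Slc5a7 repeated this order, at 9.65, 93.2 and 262 CPM in medulla, 25.1, 40.4 and 55.4 CPM in caudate putamen, 4.71, 22.9 and 42.6 CPM in corpus callosum and 6.31, 13.6 and 27.7 CPM in subventricular zone. For both genes caudate putamen was separated from corpus callosum, that from subventricular zone, and that from hypothalamus.

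In thalamus and choroid plexus Chat was low in most libraries and high in a few. Its lowest, median and highest levels were 0, 0.478 and 29.1 CPM in thalamus, with 11 of 59 libraries at 5 CPM or more, and 0, 0.308 and 20.3 CPM in choroid plexus, with 12 of 57. In pons they were 0, 0.705 and 14.8 CPM. Chat in hypothalamus and pons was not told apart by the edgeR test (-0.02 log2, pons minus hypothalamus, SE 0.26, adjusted p = 0.934). Slc18a3, the vesicular acetylcholine transporter, lies within the Chat gene and shares no exon bases with it.

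Chat in corpus callosum and subventricular zone moved with striatal genes. The 6 striatal markers were summed in each library, and the correlation of log2 Chat with that sum was 0.942 in corpus callosum (57 libraries, Spearman 0.857), 0.703 in subventricular zone and 0.830 in caudate putamen itself. Chat in corpus callosum did not follow Chat in caudate putamen of the same mouse (r = -0.0173 over 56 mice). In thalamus Chat ran against the thalamic list (r = -0.535 over 59 libraries). The share of striatal tissue in the callosal and subventricular dissections was not tested.

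The regions were compared pairwise for 7 that hold or border known groups of these neurons: olfactory bulb, caudate putamen, subventricular zone, hypothalamus, thalamus, pons and medulla. Over the 21 pairs, 141 of 210 combinations of gene and pair passed the filter on low counts. Of these, 136 differed in level, or 96.5%, where 87% of all genes tested differed. Several members pass the filter in a pair only through the region where they are high, and the regions were chosen as known sites of these cells, so the count is a description and is not read against that share. The 5 combinations that did not pass were those of Th, Ddc and Chat given above. Slc6a2 was filtered in each pair. With mouse as a replicate block, 134 combinations passed.

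Genes of the same transmitter rose and fell together between libraries of a region. After removing sex and age, Th and Slc6a3 had r = 0.986 over 51 pons libraries (Spearman 0.991 for the same measure). Tph2 and Slc6a4 had r = 0.985 in pons and 0.991 over 58 medulla libraries. Chat and Slc5a7 had r = 0.951 in corpus callosum, 0.907 in thalamus, 0.902 in choroid plexus, 0.886 in medulla, 0.831 in subventricular zone and 0.751 in caudate putamen. Across transmitters the value was near 0 in pons, where Tph2 and Th had r = -0.0114. These correlations are descriptions, since the libraries of a region share the borders of a dissection and a like depth.

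Ddc and Slc18a2 followed the dopamine pair in pons and the serotonin pair in medulla. In pons, Ddc had r = 0.870 with Th and 0.142 with Tph2, and Slc18a2 had 0.791 with Th and 0.218 with Tph2. In medulla the order was turned, with 0.926 between Ddc and Tph2 and 0.478 between Ddc and Th, and with 0.950 between Slc18a2 and Tph2 and 0.415 between Slc18a2 and Th. In olfactory bulb Th and Slc6a3 kept r = 0.675, while Th and Ddc had -0.021. In caudate putamen Th and Ddc ran against each other (r = -0.309). Of 60 combinations of pair and region in which both genes averaged at least 1 CPM, 26 had an r of at least 0.5.

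**Figure D2:**
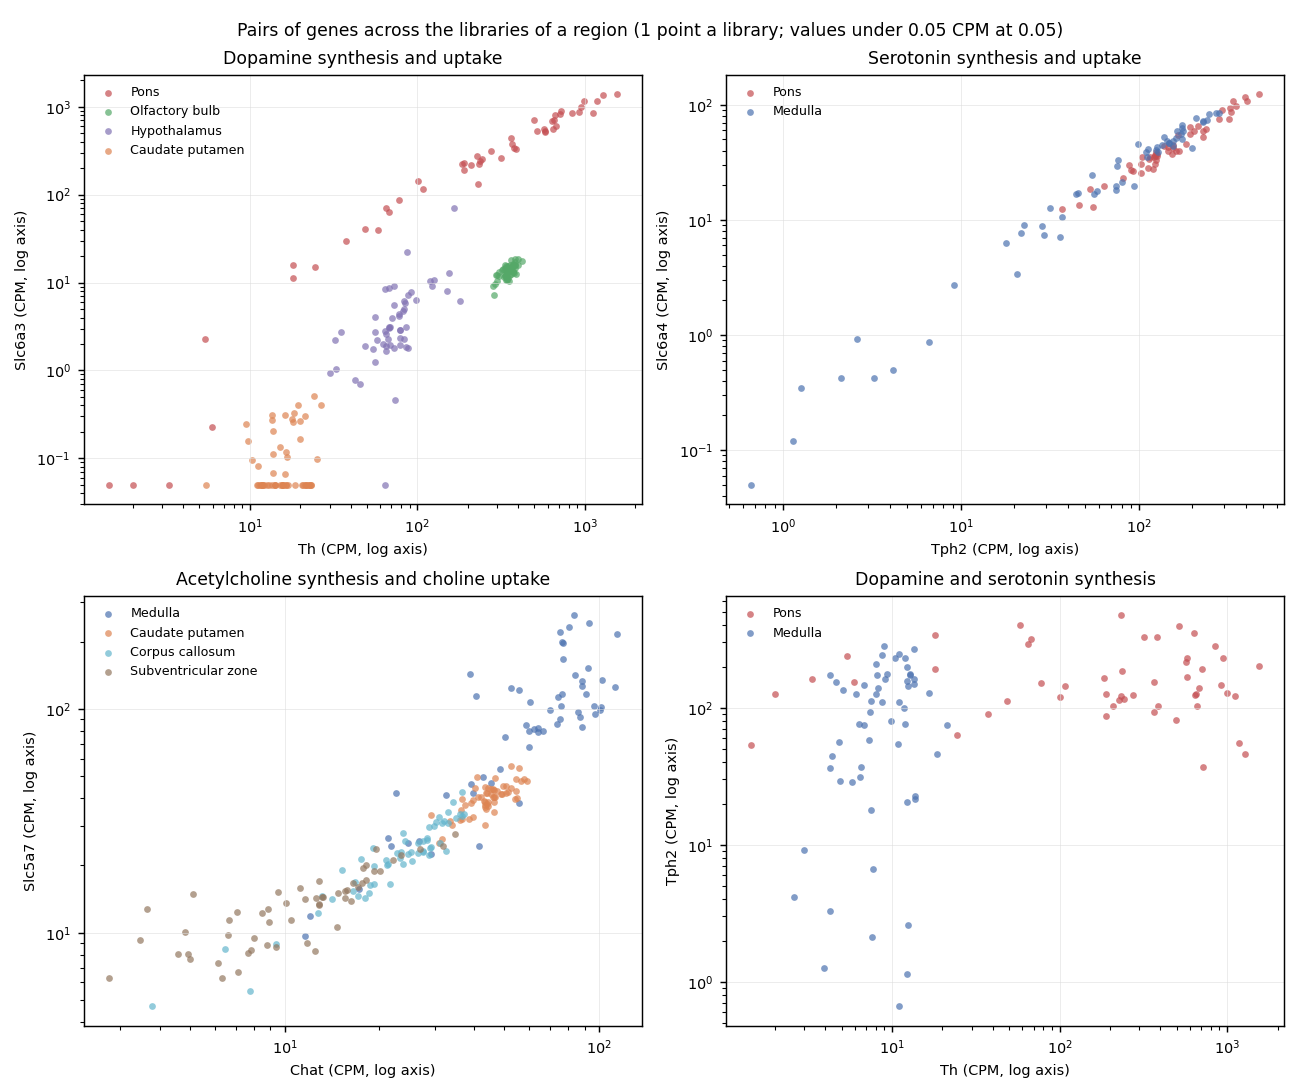
CPM of 1 gene against another in each library, both axes on log scales, with colours for regions: Th and Slc6a3, Tph2 and Slc6a4, Chat and Slc5a7, and Th and Tph2. Pons libraries form a line for Th and Slc6a3 (r = 0.986), bulb libraries sit below that line at a ratio near 0.0388, and Th and Tph2 in pons form no line (r = -0.0114).

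Levels of 1 gene in 2 regions of the same mouse were compared for 9 combinations. Tph2 in pons and medulla of the same 51 mice had r = -0.136, Th in pons and hypothalamus of 48 mice 0.008, and Slc18a2 in pons and medulla 0.213. Chat in caudate putamen and subventricular zone of 54 mice had r = 0.228 (Spearman 0.223), and in corpus callosum and subventricular zone 0.0368 (Spearman 0.220). The 9 values of r lay between -0.136 and 0.228, far below those of gene pairs within a region such as Th and Slc6a3 in pons. Over all genes, libraries of the same mouse had median correlations of their deviations between -0.00776 and 0.262 in the 21 pairs of regions.

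Among 13797 genes compared in pons, those most like Th were Chrna6 (r = 0.992), Slc6a3 (0.986), Chrnb3 (0.960), Trpc6 (0.946) and Drd2 (0.944), over 51 libraries. Chrna6 and Chrnb3 are nicotinic receptor subunits and Drd2 is a dopamine receptor. The genes nearest to Tph2 were Slc6a4 (0.985), Gchfr (0.919), Fev (0.907), Slc22a3 (0.863) and Slc17a8 (0.860), where Fev is a transcription factor of serotonin neurons. Slc18a2 was nearest to Hpcal4 (0.956) and Gch1 (0.950), the enzyme that begins synthesis of the cofactor of both hydroxylases. In medulla, Chat was nearest to Slc18a3 (0.979), Susd2 (0.955), Rspo2 (0.952), Kcnj14 (0.945) and Chodl (0.943), Slc5a7 to Ret (0.937), and Dbh to Th (0.698) and Npy4r (0.650). Over the 15 region means, Chat was nearest to Slc18a3 (0.981), Slc6a4 to Hoxb5 (0.993), Slc6a3 to Cdh23 (0.881) and Foxa2 (0.858), Th to Bend7 (0.872), and Ddc to Bcl3 (0.954). These points share libraries and depth.

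The age of the mice was tested as a slope in log2 per month beside sex, region by region. Of 150 combinations of gene and region, 86 passed the filter on low counts, and pons was the region where all 10 genes passed. Of the 86, 9 passed the threshold, 7 rising and 2 falling. That is 10.5%, where 11.5% of all genes tested passed (6.37% rising and 5.1% falling), so the members changed about as often as other genes. At an unadjusted p under 0.05 there were 25. The share of all genes at that cut is not given, so neither this count nor those at that cut below are read as an excess. Ddc made up 6 of the 7 rises. Slc18a2 was tested in 15 regions and passed in none, with 0 also at an unadjusted p under 0.05 in edgeR. Chat passed in none of 9, Slc5a7 in none of 12, Slc6a4 in none of 2 and Dbh in none of 3 (at an unadjusted p under 0.05, edgeR gave 2, 2, 0 and 2).

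**Figure D3:**
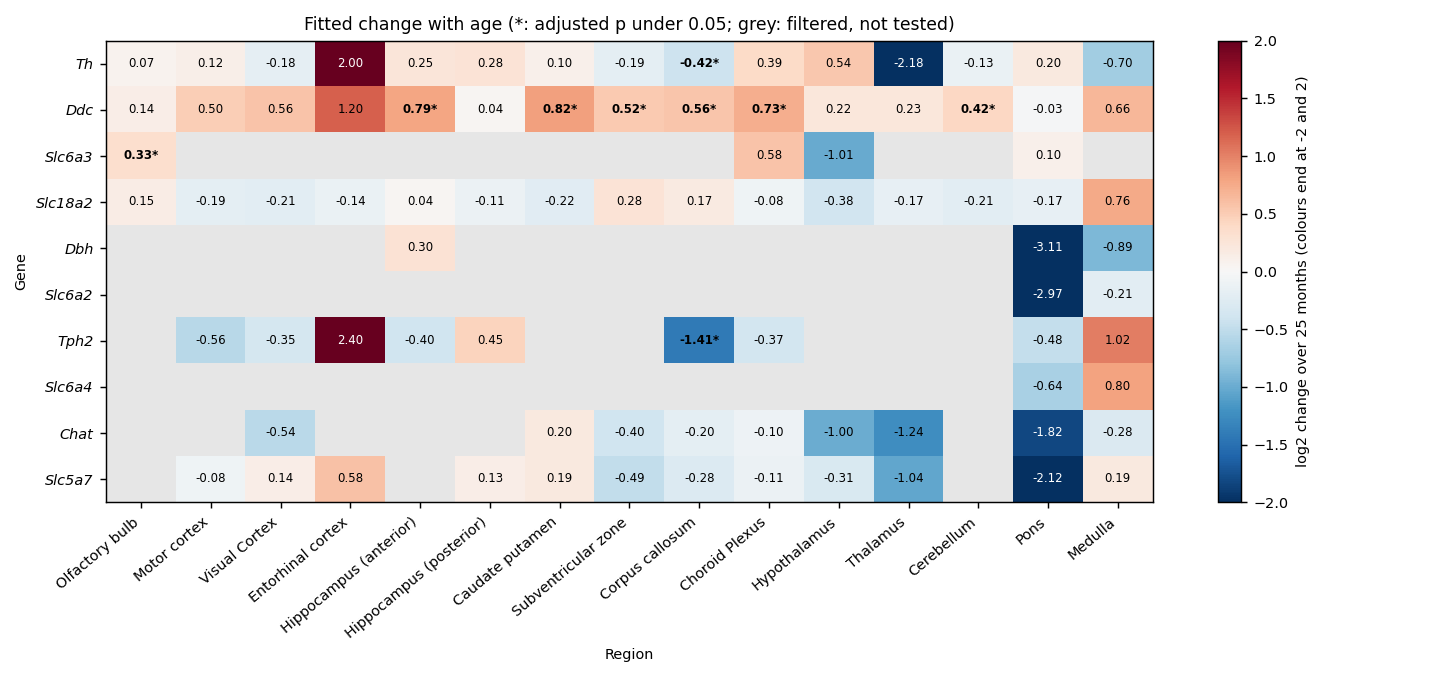
Fitted change over 25 months in log2, for 10 genes (rows) and 15 regions (columns), with colours ending at -2 and 2, an asterisk for an adjusted p under 0.05 and grey for combinations that the filter removed. Of the 9 asterisks, 6 are in the row of Ddc, and the row of Slc18a2 has none.

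Ddc rose with age in anterior hippocampus, caudate putamen, corpus callosum, subventricular zone, choroid plexus and cerebellum. In caudate putamen its lowest, median and highest levels were 4.42, 8.72 and 12.7 CPM at 3 months, 6.52, 10.8 and 17.7 at 12 months, and 3.65, 12.3 and 16.5 at 21 months. The 5 libraries of 26 months ran from 12.1 to 24.7 CPM, and the 3 of 28 months were 15.4, 16.1 and 16.5 CPM, all above the highest of 3 months. The fitted slope was 0.0330 log2 per month (SE 0.00816, adjusted p = 0.00348), or 1.77-fold over 25 months (95% interval 1.34 to 2.34). In this region 13.9% of all genes passed.

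In anterior hippocampus Ddc ran at 3.57, 5.39 and 8.33 CPM at 3 months and at 4.09, 10.0 and 14.2 CPM at 15 months, and the 3 libraries of 28 months were 6.98, 12.3 and 13.0 CPM. The lowest of these lay inside the range of 3 months. The slope was 0.0316 (SE 0.00657, adjusted p = 5.68e-04), or 1.73-fold over 25 months, with 11.4% of all genes passing. In corpus callosum the levels were 8.79, 14.2 and 18.3 CPM at 3 months, 16.7, 19.9 and 24.2 CPM at 21 months, and 15.3, 18.6 and 24.0 CPM at 28 months, with a slope of 0.0223 (SE 0.00567, adjusted p = 0.00301, background 18.6%). In subventricular zone they were 7.19, 9.30 and 11.9 CPM at 3 months and 11.0, 14.3 and 16.6 CPM at 28 months, with a slope of 0.0209 (SE 0.00548, adjusted p = 0.00911, background 8.52%). The groups overlapped in both regions. These 4 rises kept their direction and passed under most settings tried, and the last 2 did not pass with males alone.

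The other rises of Ddc were less firm. In choroid plexus the levels were 5.50, 9.39 and 29.1 CPM at 3 months, 15.4, 21.2 and 29.7 CPM at 21 months, and 9.76, 18.1 and 20.4 CPM at 28 months. The slope was 0.0293 (SE 0.0108, adjusted p = 0.0455, background 20.8%), and 5 of 11 other settings and 24 of 57 fits without a single mouse did not pass. In cerebellum the levels were 2.82, 4.68 and 7.50 CPM at 3 months and 5.58, 6.00 and 8.37 CPM at 28 months, with a slope of 0.0167 (SE 0.00602, adjusted p = 0.0420, background 18.9%). There 6 of 11 settings and 11 of 58 fits without a single mouse did not pass. In motor and visual cortex Ddc gave fitted values of 0.50 and 0.56 log2 over 25 months that did not pass (adjusted p = 0.0728 and 0.0903). In pons, where Ddc is highest, the fitted value was -0.03 (adjusted p = 0.986).

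**Figure D4:**
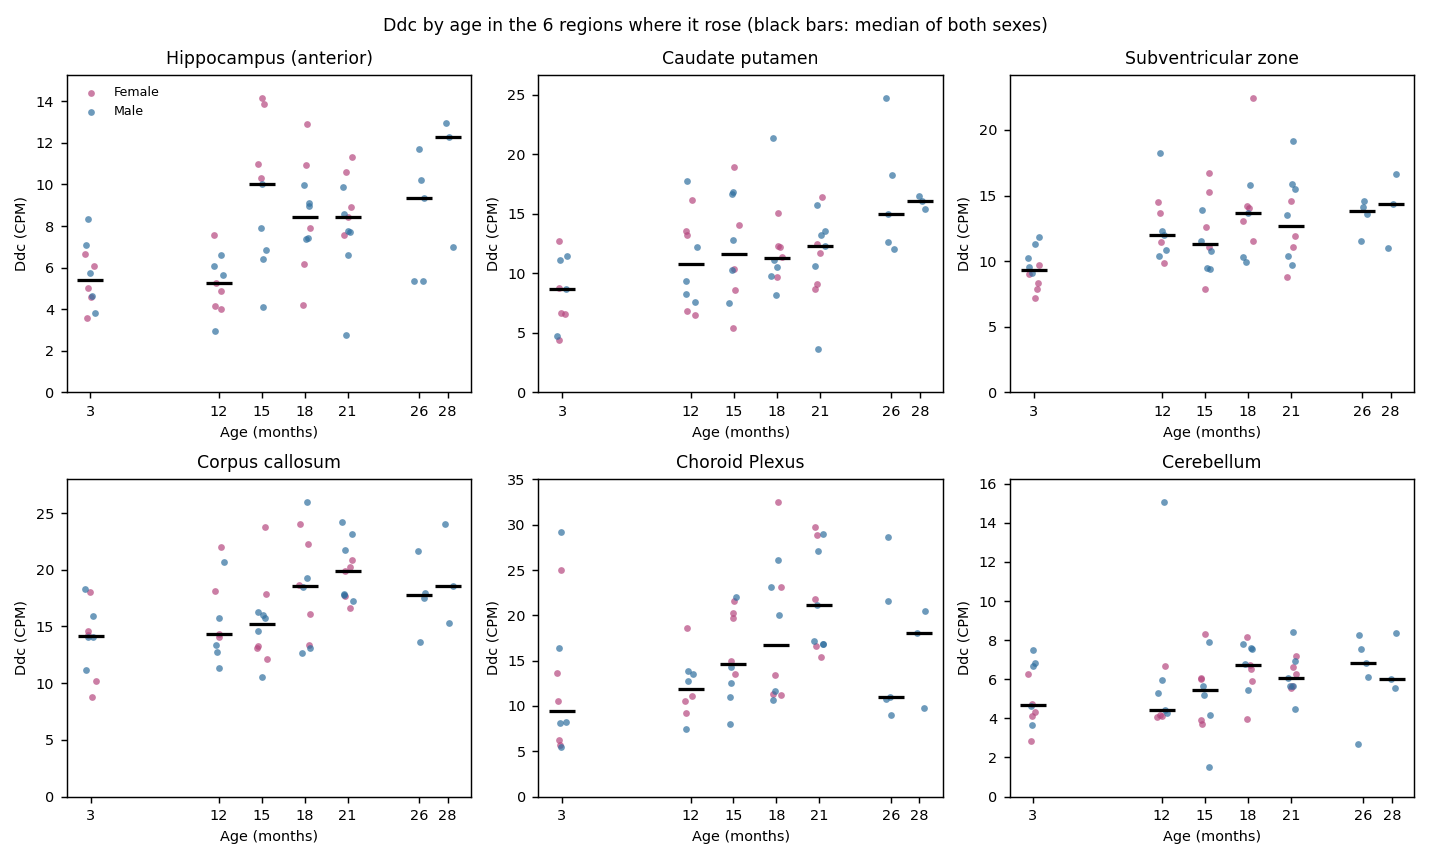
CPM of Ddc against age in months in the 6 regions where its slope passed, with points for females and males and black bars for the median of both sexes. In caudate putamen the 3 libraries of 28 months (15.4 to 16.5 CPM) lie above each library of 3 months (highest 12.7 CPM), while in choroid plexus and cerebellum the ages overlap.

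Ddc also moved with markers of other cell types, among them myelin-forming cells. The mature oligodendrocyte genes Mbp, Mog, Mag and Mobp were summed in each library. Log2 Ddc had a correlation with that sum of 0.866 in caudate putamen, 0.832 in choroid plexus, 0.767 in corpus callosum, 0.678 in anterior hippocampus, 0.638 in cerebellum and 0.647 in subventricular zone, over 55 to 58 libraries. In the regions where Ddc did not pass with age, it had 0.693 in motor cortex, 0.630 in posterior hippocampus, 0.438 in thalamus, 0.418 in medulla, 0.409 in entorhinal cortex, 0.390 in visual cortex, 0.0831 in olfactory bulb, -0.231 in pons and -0.408 in hypothalamus. Without the 2 libraries farthest from the median of the x axis, r was 0.701 in motor cortex and 0.534 in posterior hippocampus. It was then 0.316 in thalamus, 0.283 in medulla, 0.266 in visual cortex and 0.142 in entorhinal cortex. The relation was thus also found where no change with age was called, as in posterior hippocampus. It was not limited to this list: in caudate putamen, where other lists were computed, Ddc had r = 0.740 with the astrocyte list, 0.474 with microglia, 0.104 with endothelium and -0.630 with neurons. The part of cell makeup in the age slopes was not tested beyond the covariate fits that follow. The sum itself ran in caudate putamen from 3284 to 1.279e+04 CPM at 3 months and from 9739 to 1.41e+04 CPM at 28 months. In anterior hippocampus it ran from 2124 to 4899 CPM at 3 months and from 4067 to 5690 CPM at 28 months. Each of the 4 markers had a median above 1 CPM in each region. Those that rose with age were 2 of 4 in anterior hippocampus, 3 in choroid plexus and 2 in corpus callosum, and 0 in caudate putamen, subventricular zone and cerebellum.

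With the mean log2 CPM of the oligodendrocyte and choroid plexus lists as covariates, the slope of Ddc was 0.0215 in caudate putamen (adjusted p = 3.07e-04), 0.0213 in anterior hippocampus, 0.0129 in corpus callosum (0.0235) and 0.0125 in subventricular zone (0.0440). These 4 still passed. The slope was 0.00598 in choroid plexus, where it no longer passed, and the value for cerebellum is not given here. With these covariates, 10 combinations of gene and region passed that had not passed without them. The share of all genes that passed in that fit is not given, so this count is not read as an excess. The astrocyte and neuron lists were not among the covariates. The genes nearest to Ddc in caudate putamen, looked up after its values were seen, were Litaf (0.904), Gatm (0.899) and Cmtm5 (0.898), whereas in medulla they were Fev (0.953) and Gch1 (0.951).

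**Figure D5:**
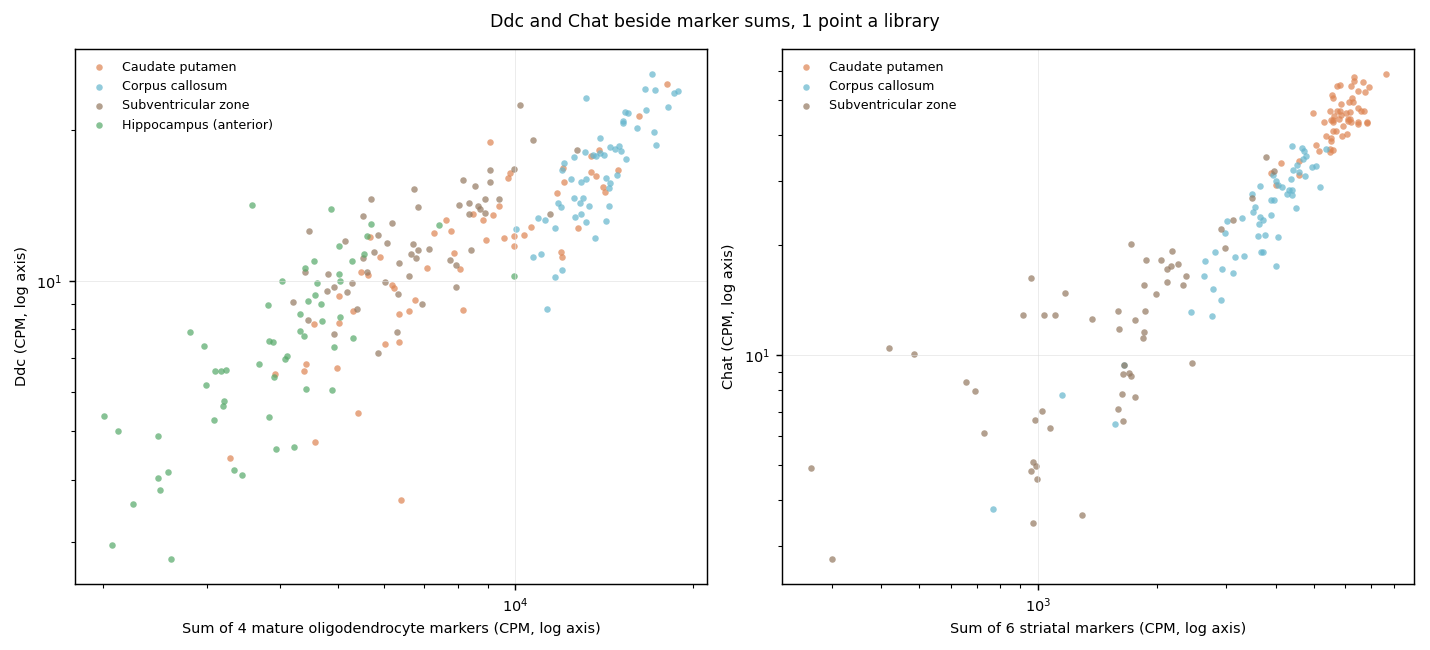
CPM of a member against the summed CPM of a marker list in each library, on log axes: Ddc against 4 oligodendrocyte genes in caudate putamen, corpus callosum, subventricular zone and anterior hippocampus, and Chat against 6 striatal genes in caudate putamen, corpus callosum and subventricular zone. Ddc climbs with the oligodendrocyte sum within each of the 4 regions (r from 0.647 to 0.866), and Chat with the striatal sum within each of the 3 (r from 0.703 to 0.942).

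Slc6a3 rose in olfactory bulb. Its levels were 7.24, 12.0 and 18.6 CPM at 3 months, 9.72, 12.2 and 16.4 CPM at 21 months, 14.5, 15.8 and 18.6 CPM over the 5 mice of 26 months, and 12.4, 14.0 and 14.6 CPM in the 3 mice of 28 months. The ages overlapped throughout. The slope was 0.0134 (SE 0.00413, adjusted p = 0.0179), or 1.26-fold over 25 months in a region where 16.8% of all genes passed, and it did not pass with males alone, with mice 16 to 56 alone or without the ages of 26 and 28 months. Th in the same bulbs stayed level, at medians of 339 CPM at 3 months and 335 CPM at 28 months, with a slope of 0.00290 that did not pass (adjusted p = 0.380).

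Tph2 and Th fell in corpus callosum, both from low levels. Tph2 there had 0.507, 0.958 and 1.98 CPM at 3 months, 0.125, 0.407 and 1.10 CPM at 21 months, and 0, 0 and 0.595 CPM in the 3 mice of 28 months. Its slope was -0.0563 (SE 0.0144, adjusted p = 0.00290), or 0.377-fold over 25 months. With a median of 4 reads a library, these levels lie near the limit of counting. Th had 4.27, 7.10 and 10.1 CPM at 3 months and 3.77, 5.61 and 6.05 CPM at 28 months, with a slope of -0.0168 (SE 0.00614, adjusted p = 0.0459). That call was kept in 1 of 11 other settings and did not pass in 29 of 57 fits without a single mouse.

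In medulla, where 10.8% of all genes passed, Th and Dbh gave negative values of like size that did not pass. Th ran at 6.41, 10.9 and 21.4 CPM at 3 months and at 4.26, 6.08 and 7.65 CPM at 28 months, with a fitted value of -0.70 log2 over 25 months (adjusted p = 0.0596). Dbh ran at 3.77, 6.92 and 13.4 CPM at 3 months and at 2.52, 3.97 and 6.96 CPM at 28 months, with -0.89 (adjusted p = 0.0669). Both passed with the Wald test of DESeq2 (adjusted p = 0.0374 and 0.0292). Tph2 in medulla varied by age without a trend that passed: its medians were 75.0 CPM at 3 months, 22.6 at 12, 102.6 at 15, 156 at 18, 178 at 21 and 74.7 at 26 months, with 6.61, 36.2 and 125 CPM in the 3 mice of 28 months (fitted value 1.02, adjusted p = 0.362).

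In pons no member passed, by edgeR, where 5.7% of all genes did. At an unadjusted p under 0.05 there were 4, Dbh, Slc6a2, Chat (-1.82 log2 over 25 months, adjusted p = 0.112) and Slc5a7 (-2.12, 0.0797). The medians of Chat were 1.05 CPM at 3 months, 0.458 at 12, 0.567 at 21, 1.17 at 26 and 1.15 at 28 months. Those of Slc5a7 were 0.962, 0.224, 0.554, 1.29 and 1.15 CPM at the same ages. Both were thus lower from 12 to 21 months than at 3 months, and not lower at 26 and 28 months. At 3 months, mice 41 and 21 had 9.25 and 14.8 CPM of Chat and 11.4 and 12.8 CPM of Slc5a7. Mouse 5, at 26 months, had 11.7 and 9.39 CPM of the same genes. Medians of Th were 518 CPM at 3 months, 31.9 at 12, 365 at 15, 236 at 18, 379.8 at 21 and 43.2 at 26 months, and the 3 libraries of 28 months had 580, 645 and 842 CPM. The low ages, 12 and 26 months, are those of mice 1 to 15. The fitted value over 25 months was 0.20 log2 (interval of the fold 0.402 to 3.26, adjusted p = 0.938). Dbh and Slc6a2 in pons gave -3.11 and -2.97 log2 with adjusted p of 0.0529 and 0.0513. Both rested on the library of mouse 41: without it the slope of Dbh was -0.0549 per month in place of -0.124 (adjusted p = 0.609) and that of Slc6a2 -0.0649 in place of -0.119 (0.482). On log2 CPM both slopes had the other sign, at 0.00416 for Dbh and 0.0089 for Slc6a2 (unadjusted permutation p = 0.906 and 0.758). In entorhinal cortex, where 0.227% of all genes passed, Th and Tph2 gave 2.00 and 2.40 log2 over 25 months (adjusted p = 0.217 and 0.143). Without the library of mouse 52, whose profile was nearest to pons, the slope of Th there was 0.0626 per month in place of 0.0801. Tph2 stood at 24.3 CPM in that library, and the next highest was 2.33 CPM, in mouse 28 of the same age. The 3 libraries of 28 months had 1.34, 1.54 and 0.605 CPM of Tph2.

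Slopes were then compared between regions through the age by region term. Of 141 combinations, 4 passed, or 2.84%, where 1.75% of all genes tested passed. Of the 4, 3 were in the pair of olfactory bulb and caudate putamen, where 11.2% of all genes differed, and 1 was in that of caudate putamen and pons, where 0.298% did. Ddc had a slope 0.0308 higher in caudate putamen than in olfactory bulb (SE 0.00926, adjusted p = 0.0175), and Slc18a2 one that was lower (-0.0175, SE 0.00527, adjusted p = 0.0176). Chat had a slope 0.105 higher in caudate putamen than in bulb (SE 0.0331, adjusted p = 0.0231), but 34 of 58 bulb libraries had no Chat read. Slc5a7 had a lower slope in pons than in caudate putamen (-0.0961, SE 0.024, adjusted p = 0.0463), which did not pass under any of 5 other settings. With mouse as a replicate block the value for Slc5a7 was -0.0725 (adjusted p = 0.406), and the other 3 still passed. With males alone none of the 4 passed. The pairs share regions and mice, so these values are not independent of each other.

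Females and males were set against each other among mice of 3 to 21 months. Of 83 combinations of gene and region, 3 differed in level, or 3.61%, where 3.01% of all genes tested did. Slc6a3 in hypothalamus had 0.696, 2.32 and 7.95 CPM in 24 females and 0, 5.49 and 70.4 CPM in 25 males, so that the male range enclosed the female one. The difference was 1.40 log2 (male minus female, SE 0.32, adjusted p = 0.00531), in a region where 5.43% of all genes differed. It was 0.76 with an adjusted p of 0.0718 in mice 16 to 56 alone. In mice of 12 months alone it was 3.25 (adjusted p = 0.0816 by edgeR). Among those mice, males 6 and 9 had 70.4 and 22.2 CPM, so the top of the male range was 1 library. The whole dopamine list ran from 36.3 to 344 CPM in hypothalamus, with a median of 88.2 CPM. Its part in the difference was not tested.

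Th in medulla was higher in males, with 2.99, 7.45 and 13.8 CPM in 24 females and 3.90, 11.9 and 21.4 CPM in 26 males (0.50 log2, SE 0.16, adjusted p = 0.0172). In that region 24.6% of all genes differed between the sexes. In motor cortex Th was lower in males, with 0.670, 4.31 and 9.69 CPM in 25 females and 0.807, 2.79 and 4.59 CPM in 26 males (-0.61 log2, SE 0.15, adjusted p = 0.0160), where 3.81% of all genes differed. The sexes overlapped in both regions. Among mice 16 to 56, males are numbered 16 to 36 and females 37 to 56, so sex and number cannot be told apart there. In mice of 12 months alone, whose numbers alternate between the sexes, the values had an adjusted p of 0.86 or more for Th in both regions, and Th in motor cortex had the other sign (0.33, adjusted p = 0.950). The slopes of the sexes differed for 0 of 83 combinations in edgeR, where 0.0694% of all genes tested differed, and 4 had an unadjusted p under 0.05, 3 of Slc18a2 and 1 of Th.

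Other genes of the same pathways were followed over age on lists written by gene function. The list of dopamine neuron genes gave 10 calls in 94 tests, 1 rising and 9 falling, a share of 10.6% beside the 11.5% of all genes. The share of all genes that passed was 7.33% in hypothalamus, 17.3% in motor cortex and 4.79% in thalamus. Noradrenaline neuron genes gave 1 of 38, falling, serotonin neuron genes 1 rising and 6 falling of 73, and cholinergic neuron genes 8 rising and 2 falling of 94. Of these 8 rises, 7 were of the gene Ngfr. Cofactor synthesis gave 2 rising and 5 falling of 83, and breakdown and uptake 8 and 6 of 118. Among receptors, dopamine receptors gave 2 and 2 of 44, adrenergic receptors 2 and 9 of 124, serotonin receptors 7 and 10 of 167, muscarinic receptors 2 and 5 of 64 and nicotinic receptors 2 and 8 of 127. Their shares ran from 2.63% to 11.9%. The median slope of a list lay between -0.0044 and 0.000833 log2 per month.

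Of the pathway genes, Ngfr, a low-affinity neurotrophin receptor on the cholinergic list, was the one that passed in at least 5 regions in 1 direction. It rose in 7 of 15 regions, by 1.23 log2 over 25 months in caudate putamen, 1.19 in motor cortex, 1.00 in corpus callosum, 0.96 in thalamus, 0.88 in pons, 0.78 in anterior hippocampus and 0.38 in olfactory bulb. The share of all genes that rose in as many regions is not given here. Chat passed in no region, and the filter on low counts removed it in motor cortex, anterior hippocampus and olfactory bulb. In caudate putamen the muscarinic receptor Chrm3 fell by 0.88 and the nicotinic subunit Chrna4 by 0.60. In medulla the nicotinic subunits Chrna3, Chrna6 and Chrnb4 fell by 1.47, 2.03 and 1.53, and Mnx1, a transcription factor of motor neurons, by 3.57. Chat in medulla had a fitted value of -0.28 that did not pass.

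In hypothalamus the dopamine neuron factors Foxa1, Foxa2, Lmx1a, Lmx1b and Nr4a2 fell by 3.03, 3.47, 3.60, 3.17 and 1.86 log2 over 25 months, and Chrna6 by 3.15. Markers of other regions and of hypothalamus itself moved there too: Neurod6, of cortex and hippocampus, fell by 2.07, Eomes, of olfactory bulb, rose by 4.45 and Avp, of hypothalamus, by 2.94 (adjusted p = 0.0429, 0.00908 and 0.0439). Their part in these falls was not tested. Foxa2 had its highest regional mean in pons, at 3.23 CPM, so its mean in hypothalamus was lower. The levels of the other factors, and of Mnx1 in medulla, are not given here. How far these falls rest on single libraries is not given either. Th there gave 0.54 and Slc6a3 -1.02, neither of which passed (adjusted p = 0.170 and 0.338). In olfactory bulb Drd2 fell by 0.84 and Aldh1a1 rose by 0.27, beside the rise of Slc6a3. Gch1 fell by 0.78 in cerebellum, 0.77 in thalamus, 0.89 in motor cortex and 0.72 in anterior hippocampus. Qdpr, which recycles the same cofactor, rose by 0.39 in anterior hippocampus and by 0.57 in choroid plexus, where Ddc also rose. In pons, Ngfr was the only gene of the lists that passed.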

How the data were processed

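RNA of 15 brain regions from 59 mice was sequenced in 847 libraries. The authors deposited raw counts per gene. Per the labels' protocols, RNA was isolated with RNeasy columns and libraries were made by Smart-Seq2 and Nextera XT without strand. Per the submitters' processing notes, Trim Galore 0.3.7, STAR 2.5.3a and the build GRCm38 were used. The counting program and the annotation are not given in the sources used here.

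Groups (region, sex and age) came from the sample titles. The members and lists were chosen with earlier results of these data known, and 1 gene each of the noradrenaline and oligodendrocyte lists is not reported here and entered no sum. The deposited counts were fitted with edgeR 4.0.16 (R 4.3.3): TMM factors, filterByExpr, quasi-likelihood F tests and Benjamini-Hochberg adjustment over all genes of a region or pair, 2-sided, at 0.05. Age was a number in months beside sex. CPM is the count over the library total, and log2 CPM has a prior count of 2. DESeq2 1.42.0 was an alternative. Tables and figures used Python 3.11.15. The p-values measure the spread between these mice. Library totals ran from 481444 to 26756735 reads. Where a gene was at 0, the bound was 3 reads over the summed libraries, expressed in CPM. The fits recovered most of the larger known changes in simulated counts, where every gene had the same spread and no low gene was changed. Members with few reads or a wide spread, such as Th in pons, were not covered by that check.

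Named genes were the 10 members, the 5 genes most correlated with each in its highest region (mean at least 1 CPM), the 3 most correlated over region means, pathway genes called in at least 5 regions in 1 direction, and those called in a region whose members are described. Likeness in other regions was looked up after values were seen.

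Libraries of 1 mouse share an animal by the labels, so mouse pairs the regions. Same-mouse deviations had median correlations from -0.00776 to 0.262 over 21 pairs of regions, against -0.0117 to 0.00218 for different mice. Alternatives covered normalization, filters, tests, subsets of mice, covariates for depth and dissection, the mouse block and leaving out mice. Those on the legacy fit, libraries under 1e+06 reads, a mouse number term, 12-month mice, sex depth covariates, and pairs without libraries nearest another region were chosen after seeing the data.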

Additional observations from a re-analysis of the deposited data

Results flagged for a closer look

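Of 201 groups of 4 to 10 libraries that were checked for a sample far from the others, 12 had one, and chance gives about 1 in 20. For Ddc, mouse 27 stood at 21.4 CPM in caudate putamen of 18-month males, where the next was 11.2. In subventricular zone mouse 43 stood at 22.4 CPM among 18-month females (next 14.2) and mouse 9 at 18.3 CPM among 12-month males (next 12.3). Mouse 22 was low in corpus callosum of 15-month males, at 10.5 CPM (next 14.6), and mouse 12 low in choroid plexus of 12-month males, at 7.47 CPM (next 12.8). In cerebellum at 12 months, mouse 13 had 6.70 CPM among females (next 4.15) and mouse 3 had 15.0 CPM among males (next 5.99). That library of mouse 3 held 731048 reads, the lowest total of the cerebellum libraries, so its level rests on few reads.

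Slc6a3 in olfactory bulb of 12-month males was 17.6 CPM in mouse 15 (next 12.3). The pons library of mouse 32, a 21-month male, had 1.28e+03 CPM of Th (next 387) and 1.37e+03 CPM of Slc6a3 (next 443), so the enzyme and the transporter stood out together. Th in olfactory bulb was low in mouse 26, a 15-month male, at 341 CPM (next 372). Slc5a7 in medulla was low in mouse 19, an 18-month male, at 38.2 CPM (next 97.0).

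The slope over age differed between regions in 4 tests. Caudate putamen exceeded olfactory bulb by 0.0308 log2 per month for Ddc and by 0.105 for Chat, and differed from it by -0.0175 for Slc18a2. Pons differed from caudate putamen by -0.0961 for Slc5a7. None of these was tested for a cause.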

How the results depend on the processing

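The age tests of the 10 genes gave 9 calls, 3 with males alone, 17 with the oligodendrocyte and choroid plexus covariates, and 6 to 14 when each mouse was left out in turn, with 14 without mouse 49. The region difference in age slope gave 4 calls, 2 with males alone and 3 to 5 without single mice. The level between regions gave 136 calls, 136 to 136 without single mice. With mouse as a replicate block it gave 134, and the slope gave 3 of its 4 calls. Besides the lost slope call of Slc5a7 between caudate putamen and pons, the level of Slc5a7 between hypothalamus and thalamus was lost. Sex differences in level gave 3 calls, 6 without the filter, 0 among 12-month mice alone by edgeR, and 3 to 3 without single mice. Sex differences in slope gave 0 to 0. Pathway lists gave 91 calls and 43 with males alone. Of the values, 3 turned sign: Th in motor cortex between sexes was 0.33 in 12-month mice, and the slopes on log2 CPM used for permutation were 0.00416 for Dbh (unadjusted p = 0.906) and 0.0089 for Slc6a2 (0.758) in pons. Fewer mice were fitted in the subsets. The share of all genes that passed under these other settings is not given, so the counts are not read against it. The cause of the other changes was not tested. Other scaling factors moved the median of all genes by at most 0.0588 log2.

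Levels under about 1 CPM rest on few reads, so Dbh and Slc6a2 outside medulla could not be compared closely. Ages of 26 and 28 months had males alone, and age cannot be fully told apart from blocks of mouse numbers.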
